A study of Mus musculus with 144 samples.

Results

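Livers of female SM/J mice, an inbred laboratory strain, were compared between 2 diets: 3 females fed the atherogenic diet (30% fat, with cholic acid, a bile acid) and 3 fed regular chow (6% fat), each animal on its own array. These 6 libraries, chosen by strain, sex and diet in their titles, were 6 of 144 in a survey of 12 strains, both sexes and both diets. The SM/J mice were 11 to 13 weeks old, carried no transgene or other engineered allele in the labels, and differed by diet only. Females of 9 other strains of that age on the same diets (54 libraries) served for comparison: NZB/BINJ, DBA/2J, C57BL/6J, A/J, I/LnJ, BALB/cJ, 129S1/SvImJ, C3H/HeJ and MRL/MpJ-Tnfrsf6lpr/J, whose lpr allele disrupts the Fas gene. Chow and atherogenic libraries are numbered 1 to 3 below, and the labels give the numbers no meaning beyond naming animals.

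The liver makes cholesterol from acetyl units, takes it up from lipoproteins, and disposes of it as bile acids or through sterol pumps into bile. When cells hold enough sterol, the SREBP2 factor is kept in the endoplasmic reticulum and the genes of synthesis and uptake are transcribed less, while oxidised sterols activate the nuclear receptor LXR and with it genes of sterol export and of fatty acid synthesis. Cholic acid in the food promotes sterol absorption and, through the bile acid receptor FXR, represses the enzymes that make bile acids; in susceptible strains this diet is known to bring macrophages, inflammation and scarring to the liver.

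Promoter sequences of 3 genes are shown from the sterol lists below. Hmgcs1 was picked because its window held the motif TCACNCCAC, described below, so the presence of that motif was fixed by the choice. Cyp51 (-3.40 log2 units), Msmo1 (-3.03) and Idi1 (-2.80) fell further than Hmgcs1 (-2.05), and their windows held no such match. Abcg5 and Abcg8 were taken from the LXR targets. The sequences come from RefSeq on build GRCm38.p6, 250 bases before to 50 after an annotated start, 5′ to 3′ along the gene's strand. Hmgcs1, the enzyme at the entry to the mevalonate route, has the window chr13:119690101-119690400 on the plus strand; the capitals mark TCACNCCAC, a form of the sterol regulatory element, 137 bases before the start, and 4 CCAAT boxes, here read as their reverse complement. Abcg5 and Abcg8, which together form the sterol pump of bile, are neighbours read in opposite directions, and the capitals mark the 209 bases that both windows hold. The Abcg5 window is chr17:84682962-84683261 on the minus strand and the Abcg8 window is chr17:84682871-84683170 on the plus strand.
Hmgcs1: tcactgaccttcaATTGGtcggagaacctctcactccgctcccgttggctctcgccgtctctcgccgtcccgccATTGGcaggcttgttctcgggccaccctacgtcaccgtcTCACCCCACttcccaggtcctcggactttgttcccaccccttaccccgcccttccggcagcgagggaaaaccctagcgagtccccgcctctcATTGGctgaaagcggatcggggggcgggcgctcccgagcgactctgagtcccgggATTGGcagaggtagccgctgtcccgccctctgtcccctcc
Abcg5: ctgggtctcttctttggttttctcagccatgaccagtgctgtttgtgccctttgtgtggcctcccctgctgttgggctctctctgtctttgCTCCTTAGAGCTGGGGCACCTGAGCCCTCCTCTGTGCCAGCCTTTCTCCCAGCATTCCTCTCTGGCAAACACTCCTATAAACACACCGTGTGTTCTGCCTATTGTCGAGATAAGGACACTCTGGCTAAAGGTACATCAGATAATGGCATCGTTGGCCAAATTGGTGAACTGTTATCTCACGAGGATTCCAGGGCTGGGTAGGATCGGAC
Abcg8: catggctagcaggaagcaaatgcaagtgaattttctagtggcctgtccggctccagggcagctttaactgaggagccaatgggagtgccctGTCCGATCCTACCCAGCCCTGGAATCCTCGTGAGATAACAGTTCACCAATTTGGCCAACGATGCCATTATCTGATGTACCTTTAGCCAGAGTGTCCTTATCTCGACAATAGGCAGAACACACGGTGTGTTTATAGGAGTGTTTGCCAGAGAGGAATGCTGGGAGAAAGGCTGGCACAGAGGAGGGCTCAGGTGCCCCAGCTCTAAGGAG
Searched on both strands, TCACNCCAC stood in 1.24% of all 32851 promoter windows of that table, CCAAT in 37.4% and AGGTCA, a core sequence bound by nuclear receptors, in 16.3%. Among 14 cholesterol synthesis genes with a window, 1 (Hmgcs1) held TCACNCCAC, 14 held CCAAT and 2 held AGGTCA in at least 1 window, against 1.44%, 41.1% and 18.1% of the 27025 genes of the table. Of 8 LXR target genes with a window, none held TCACNCCAC or AGGTCA and 6 held CCAAT. A match describes the letters only.

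The deposited log2 values of the 6 libraries had medians of 5.03 to 5.05, close to the 5.0 to 5.09 of the 120 libraries of the same age. Hepatocyte genes stood near the top of the scale on both diets, with Alb, the serum albumin gene, at 14.55 on chow and 14.53 on the atherogenic diet, and none of 14 hepatocyte markers passed. Xist, the RNA of the inactive X chromosome, read 11.4 to 11.7, and the Y-linked Uty, Eif2s3y and Kdm5d read 3.09 to 3.89, close to the lowest values on the arrays, as the female label says. Over the brightest probe set of each gene, the lowest correlation of a library with its own diet group was 0.9896 to 0.9942, and the highest with the other group 0.992 to 0.9928. Chow library 1 lay above the other chow libraries in several lists used below: its mean over interferon response genes was 7.80 against 6.99 and 7.16, over cholesterol synthesis genes 10.01 against 9.42 and 9.32, over macrophage markers 8.03 against 7.52 and 7.49, over acute phase genes 10.90 against 10.53 and 10.49, and over proliferation genes 5.92 against 5.56 and 5.42. Results on these lists are given with and without it.

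Over all genes, each taken by its brightest probe set, the largest fall in SM/J females on the atherogenic diet was in Sqle, of cholesterol synthesis. The largest rise was in Lepr, the leptin receptor gene. A dimmer probe set of Idi1, also of cholesterol synthesis, fell further than that of Sqle (-5.18). In a limma fit of the 120 libraries, 361 of 45037 probe sets (0.802%) passed an adjusted p of 0.05. Taking for each of 18193 genes its brightest probe set, 104 genes (0.572%) rose and 121 (0.665%) fell, and of these 17 rose and 45 fell at least 2-fold. The 3 chow and the 3 atherogenic libraries did not overlap in 217 of these 225 genes, which were chosen by the same values, and in 11.5% of all genes. Unadjusted, 1865 genes had a p under 0.05. The count was 149 without atherogenic library 1 and 31 when the 6 libraries were fitted alone, and all 31 were among the 225. The change went the same way as the mean of the females of the 9 other strains in 217 of the 225 genes (10916 of all 18193 genes), and the same way in each of those 9 strains in 123 (7.6% of all genes).

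Cholesterol synthesis fell. Of 17 measured genes of the route 13 fell, none rose, and 17 of 17 changes were negative (49.0% over all genes), with a median of -1.95 log2 units against 0.00 over all genes (0.665% of all genes fell). Sqle, which makes squalene epoxide, read 9.57, 8.02 and 7.83 in the chow libraries and 4.98, 4.81 and 4.88 in the atherogenic ones. The atherogenic libraries lay within 0.17 log2 units of each other and far below every chow library, and the change was -3.58 (SE 0.39, adjusted p = 1.24e-10), a 12-fold fall. Cyp51, the demethylase of lanosterol, read 9.82, 9.05 and 9.09 on chow and 5.82, 5.82 and 6.11 on the atherogenic diet, a change of -3.40 (SE 0.30, adjusted p = 4.67e-14). Here too the groups stood apart, and chow library 1 was again the highest.

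Further along the same route, Msmo1, the sterol C4 oxidase, read 11.05, 10.64 and 10.22 on chow against 7.20, 7.89 and 7.73. The change was -3.03 (SE 0.33). Nsdhl, Tm7sf2 and Dhcr7, which also act after Cyp51 on the way to cholesterol, changed by -2.37, -1.95 and -2.42. Upstream of squalene, Hmgcs1, whose promoter is printed above, read 11.76, 10.54 and 10.82 on chow against 9.09, 8.85 and 9.02 and changed by -2.05 (SE 0.32). Idi1 and Fdps, which build the isoprenoid units, changed by -2.80 and -2.61. A second Idi1 probe set fell from a mean of 8.86 to 3.68 (-5.18, SE 0.49), while a dim second Fdps probe set did not pass (0.29). Smaller falls passed in Pmvk (-1.28), Lss (-1.13), Fdft1 (-1.02) and Sc5d (-0.98), though 2 other Sc5d probe sets did not pass (-0.42 and -0.50). The 4 members that did not pass were Mvk (-0.76), Hsd17b7 (-0.45), Mvd (-0.43) and Ebp (-0.18), with chow and atherogenic libraries overlapping in the last 2. Without chow library 1 the list had 11 falls and a median of -1.70: Sqle changed by -3.04, Lss by -0.97 and Fdft1 by -0.86, and the last 2 no longer passed. Fdft1 also missed without atherogenic library 1 (-0.88). The other 5 ways of leaving out 1 library gave 12 or 13 falls, and the 6 libraries fitted alone gave 7.

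**Figure D1:**
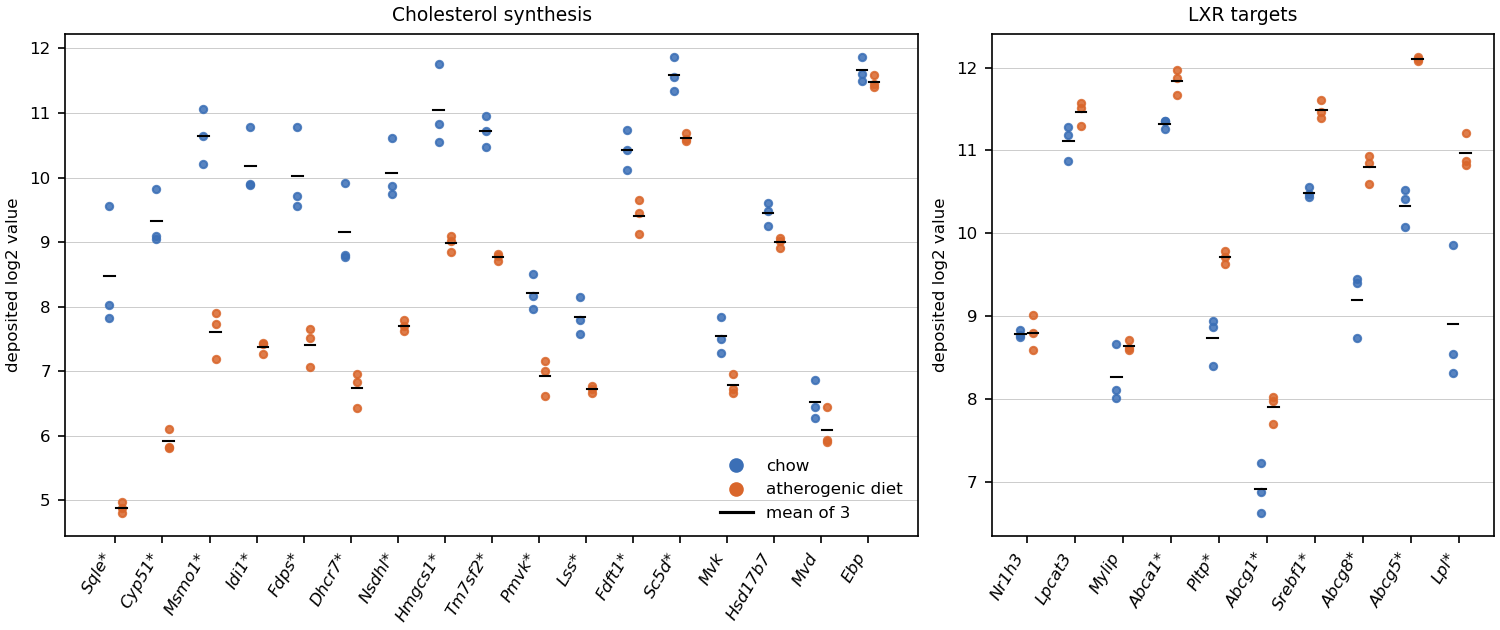
Deposited log2 values of the 17 cholesterol synthesis genes (left) and the 10 LXR targets (right) in SM/J females. Each point is 1 animal (blue chow, orange atherogenic diet), bars are means of 3 and an asterisk marks an adjusted p under 0.05. Sqle drops from 7.83 or more to 4.98 or less, and in the 13 marked synthesis genes the 2 diets do not overlap, while Abcg5 sits at 12.08 to 12.13 on the atherogenic diet.

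Genes that sense and carry sterol moved less and in both directions. Of 9 measured members 3 fell (0.665% of all genes) and 1 rose (0.572%), with a median of -0.10. Stard4, a carrier of cholesterol between membranes, changed by -1.16 (SE 0.24), Scap, the escort of the SREBP factors, by -0.69 (SE 0.10) and Srebf2, the gene of SREBP2 itself, by -0.56 (SE 0.12). A second Srebf2 probe set also fell past the threshold (-0.78, SE 0.16), while a second Scap probe set did not (-0.42, SE 0.14). Rnf145, a sterol-responsive ubiquitin ligase, rose by 0.66 (SE 0.16). Insig1, which retains Scap when sterols are plentiful, changed by -1.07 (SE 0.35, adjusted p = 0.18) and Insig2 by 0.42, and neither passed. The Srebf2 probe set that changed by -0.56 no longer passed without chow library 3 or without atherogenic library 3 (-0.52 in each), and Rnf145 without chow library 2 or without atherogenic libraries 1 or 3 (0.56 to 0.67).

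LXR targets rose: 7 of 10 measured members rose (0.572% of all genes) and none fell, with a median of 0.98. Abcg5 read 10.07, 10.52 and 10.41 on chow and 12.08, 12.13 and 12.11 on the atherogenic diet, a change of 1.77 (SE 0.15, adjusted p = 1.11e-15), or 3.42-fold. Its partner Abcg8 read 8.73, 9.45 and 9.40 against 10.60, 10.85 and 10.93, a change of 1.60 (SE 0.17). The partners rose together, with no overlap between diets in either. Lpl, the lipase that releases fatty acids from lipoproteins, read 9.86, 8.55 and 8.31 against 11.21, 10.82 and 10.87 and rose by 2.06 (SE 0.27), or 2.54 without chow library 1, the highest of the chow animals. Srebf1, the gene of the factor that drives fatty acid synthesis, rose by 1.00 (SE 0.24), Abcg1, a sterol exporter, by 0.99 (SE 0.20), Pltp, the phospholipid transfer protein, by 0.97 (SE 0.19) and Abca1, which loads cholesterol onto apolipoproteins, by 0.52 (SE 0.10). Mylip (0.37), Lpcat3 (0.35) and Nr1h3 (0.02), the gene of LXR alpha, did not pass. The list held 5 to 7 rises when single libraries were left out and 3 when the 6 libraries were fitted alone; Pltp missed without chow library 3 (0.80), and Srebf1 missed without chow libraries 2 or 3 or atherogenic libraries 1 or 3 (0.94 to 1.01).

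Lepr encodes the receptor of the fat-derived hormone leptin. Lepr read 6.29, 5.70 and 6.69 on chow and 8.86, 8.60 and 9.36 on the atherogenic diet, a change of 2.72 (SE 0.35, adjusted p = 2.30e-08), or 6.58-fold. The lowest atherogenic library lay almost 2 log2 units above the highest chow library, and 2 other Lepr probe sets rose by 3.33 and 3.29 while another, dim one did not pass (0.03). This was the largest Lepr change among the females of the 10 strains, the others spanning 0.04 to 2.31, but the difference from their mean did not pass (1.25, SE 0.36, adjusted p = 0.238).

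Further named rises were in genes of varied function. Adam11, a membrane protein of the disintegrin family without protease activity, read 6.33, 6.37 and 6.43 against 8.41, 8.40 and 8.32 and rose by 2.003 (SE 0.181), with each group within 0.1 log2 units. A second Adam11 probe set rose less, by 0.939 (SE 0.155). Hspb1, a small heat shock protein, rose by 1.88 (SE 0.37) from 8.18, 8.15 and 8.34 to 9.62, 10.20 and 10.50. Fabp7, a fatty acid binding protein best known from brain, rose by 1.59 (SE 0.28), and Scd2, a fatty acid desaturase of low level in adult liver, by 1.26 (SE 0.22). Nox4, an oxidase that makes hydrogen peroxide, rose by 1.59 (SE 0.41) and Chac1, a glutathione-degrading enzyme of the unfolded protein response, by 1.57 (SE 0.34). Spc25, a kinetochore protein, rose by 1.22 (SE 0.33), though a second Spc25 probe set did not pass (0.01, SE 0.11). These last 3 lost their call in some fits with 1 library fewer: Nox4 missed in 4 of the 6 fits that left out 1 library (chow 2 or 3, atherogenic 1 or 2; 1.45 to 1.58), Spc25 in 4 (chow 2 or 3, atherogenic 1 or 3; 1.09 to 1.19) and Chac1 in 2 (chow 3, 1.43, and atherogenic 2, 1.17).

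Falls outside the sterol route included liver genes that are higher in females. Of 17 measured female-biased genes 5 fell (0.665% of all genes) and Lepr rose, with a median of -0.55. Hao2, a peroxisomal hydroxyacid oxidase, read 10.36, 10.16 and 10.80 on chow and 9.27, 7.26 and 8.51 on the atherogenic diet. Every atherogenic library lay below every chow library but they spread over 2 log2 units, and the change was -2.09 (SE 0.29, adjusted p = 4.68e-07). Cyp17a1, a steroid hydroxylase, read 11.18, 10.71 and 11.56 against 8.40, 9.57 and 10.03 and changed by -1.82 (SE 0.36). Slc22a26, an organic anion transporter, read 9.55, 9.01 and 9.15 against 7.90, 6.92 and 7.48 and changed by -1.81 (SE 0.25). The 2 diets did not overlap in either gene. Sult3a1, a sulfotransferase, changed by -1.53 (SE 0.40) and Abcd2, a peroxisomal transporter of long fatty acids, by -1.31 (SE 0.27). Cyp2b9, Cyp2b13 and Acot3 changed by -0.35, -0.45 and -0.34 and did not pass. None of 13 male-biased genes passed (median 0.13), and the Y-linked genes stayed at their floor.

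Leaving out single animals gave 3 falls in the female-biased list without atherogenic library 1 or 2, and 4 or 5 otherwise; with the 6 libraries fitted alone none of the 5 falls passed and Lepr did. Cyp17a1 missed without atherogenic library 1 (-1.35), Abcd2 without atherogenic library 2 (-1.01), and Sult3a1 in every such fit except the one without atherogenic library 3. Slc22a27 and Slc22a29, which lie near Slc22a26 on chromosome 19, changed by -1.57 (SE 0.27) and -1.92 (SE 0.32). These are related transporters, so probe sets may share RNA and the 3 are not independent. Mup10, of the major urinary protein family, read 8.40, 8.35 and 7.13 against 4.74, 6.08 and 4.83 (-2.74, SE 0.54), and its near-identical relatives make the assignment to 1 gene uncertain. Dct, known as dopachrome tautomerase of pigment cells, read 9.09, 9.69 and 9.27 against 7.45, 7.61 and 6.99 (-1.998, SE 0.297), with no overlap.

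**Figure D2:**
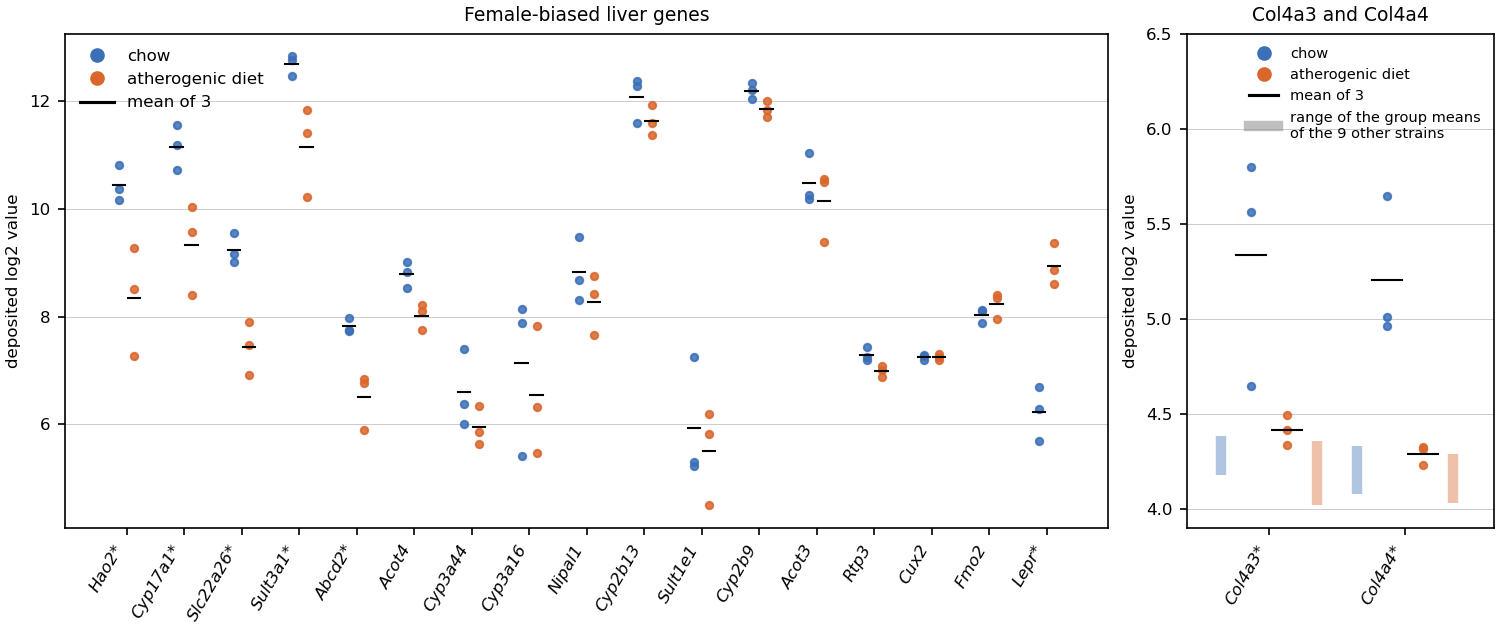
Deposited log2 values in SM/J females of the 17 female-biased genes (left) and of Col4a3 and Col4a4 (right), 1 point per animal, with means of 3 as bars and an asterisk for an adjusted p under 0.05. Shaded bars on the right span the group means of the females of the 9 other strains on the same diet. Hao2 falls from 10.16 or more to 9.27 or less, Lepr rises, and all 3 SM/J chow animals lie above the shaded chow range of both collagen genes.

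In bile acid synthesis 1 of 12 measured genes fell (0.665% of all genes) and 1 rose (0.572%), with a median of -0.16. Cyp8b1, the hydroxylase that makes cholic acid, read 11.85, 11.47 and 11.61 on chow against 10.19, 10.51 and 9.69, a change of -1.51 (SE 0.37, adjusted p = 0.0188). The groups stood apart, but the call was lost in 4 of the 6 fits that left out 1 library (chow 1 or 3, atherogenic 1 or 3; -1.54 to -1.29). Cyp7a1, the rate-limiting enzyme, read 11.33, 10.37 and 10.23 against 9.45, 10.75 and 8.57; the diets overlapped and the change of -1.05 (SE 0.60, adjusted p = 0.677) did not pass. Scp2, a peroxisomal thiolase and sterol carrier, rose by 0.21 (SE 0.05), and missed without chow library 1 (0.15) or atherogenic library 1 (0.19). Other Scp2 probe sets did not pass (0.14, 0.25 and 0.21), and with the mean of a gene's probe sets the list held 0 rises. A second probe set of Baat, of the same list, fell past the threshold (-0.36, SE 0.10), while the brightest did not pass. Of 18 genes of bile acid sensing and transport Atp8b1, a phospholipid flippase of the canalicular membrane, rose (0.70, SE 0.18; 0.572% of all genes) and none fell; it missed in 4 of the 6 fits without 1 library (chow 2 or 3, atherogenic 1 or 2; 0.56 to 0.74). Nr0b2, the repressor that FXR induces, changed by -0.13.

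Genes of fatty acid metabolism were mostly below the threshold. Scd1, the main desaturase of liver, read 13.00, 13.18 and 12.63 against 14.06, 14.02 and 14.13 and rose by 1.13 (SE 0.25), and with Scd2 it made 2 rises among 21 fatty acid synthesis genes (0.572% of all genes). A second Scd1 probe set rose more, by 2.62 (SE 0.42), while other, dim Scd2 probe sets did not pass (0.172 and 0.095). Fads1, a desaturase of polyunsaturated chains, read 11.31, 11.48 and 11.42 against 10.14, 10.11 and 10.65. It was the 1 fall over the brightest probe sets (-1.10, SE 0.18, against 0.665% of all genes). A second probe set of Acss2, of the same list, also fell past the threshold, from a mean of 8.74 to 7.70 (-1.04, SE 0.26). The brightest Acss2 probe set did not pass. Fasn (-0.40) and Acly (-0.21), which make the chains, did not pass, and the median of the list was -0.09. None of 19 genes of fatty acid oxidation passed (median -0.03). Fabp2 and Fabp4, fatty acid binding proteins, rose by 1.09 (SE 0.15) and 0.75 (SE 0.17) among 21 lipid droplet and storage genes, and Apoc2, the cofactor of Lpl, rose by 0.54 (SE 0.11) among 15 apolipoprotein genes, against the same 0.572%. The Scd1 probe set that rose by 1.13 missed without chow library 3 (0.98), and Fabp4 without chow libraries 2 or 3 or atherogenic library 1 (0.64 to 0.66). Other, dimmer Fabp4 probe sets did not pass (0.67, 0.10 and -0.07).

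Among 26 cytochrome P450 and flavin monooxygenase genes 3 fell (0.665% of all genes) and 1 rose (0.572%), with a median of -0.14. Beside Cyp17a1, Cyp2f2 fell by 0.74 (SE 0.16) and Cyp1a2 by 0.64 (SE 0.15), both xenobiotic oxidases abundant in liver, and Fmo5 rose by 0.87 (SE 0.17). Of 19 NRF2 targets and glutathione transferases Gsta3 was the 1 fall (-0.52, SE 0.12; 0.665% of all genes). Of 18 ER stress genes Edem1, which sends misfolded proteins to degradation, rose with Chac1 (0.40, SE 0.09), 2 rises against 0.572% of all genes; a second, well-expressed Edem1 probe set did not change past the threshold (-0.02), and with the mean of a gene's probe sets the list held 1 rise. Several of these lost their call with 1 library fewer: Cyp1a2 missed without chow libraries 2 or 3 or atherogenic libraries 1 or 3 (-0.61 to -0.55), Gsta3 without chow libraries 2 or 3 or atherogenic library 1 (-0.50 to -0.35), Edem1 without chow library 3 (0.33), Fmo5 without chow library 1 (0.66) and Cyp2f2 without atherogenic library 3 (-0.53).

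Acute phase genes leaned upward with little that passed. Of 24 measured members 22 changes were positive (51.0% over all genes), with a median of 0.26 (0.32 without chow library 1), and Hpx, the heme carrier hemopexin, was the 1 that rose (0.24, SE 0.06; 0.572% of all genes); it missed in 4 of the 6 fits without 1 library (chow 2 or 3, atherogenic 1 or 2). Lcn2, an iron-sequestering protein of inflammation, read 7.93, 7.43 and 7.20 against 9.09, 9.95 and 8.84 without passing (1.77, SE 0.67, adjusted p = 0.32), and Saa3 changed by 1.37 (SE 0.52). C9, a component of the membrane attack complex that was in no list, rose by 1.00 (SE 0.16). Of 19 interferon response genes Bst2, the tetherin gene, was the 1 that rose (0.95, SE 0.20; 0.572% of all genes) and missed without chow library 3 (0.74). The median of the interferon list was 0.13, and 0.38 without chow library 1. Of 22 chemokine and inflammation genes Ccl9 fell by 0.69 (SE 0.15; 0.665% of all genes) and none rose; it missed without chow library 1 (-0.62) or atherogenic library 1 (-0.60).

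Macrophage markers split. Of 23 measured members 3 rose (0.572% of all genes) and 1 fell (0.665%), with a median of 0.03. Lyz2, the lysozyme of macrophages, read 6.989, 6.997 and 7.061 on chow against 8.39, 8.43 and 8.22 and rose by 1.33 (SE 0.31). Cd9, a tetraspanin, read 8.86, 7.53 and 7.68 against 9.275, 9.216 and 9.001 (1.14, SE 0.19), and Cd5l, a secreted protein of Kupffer cells, rose by 0.94 (SE 0.22). Lyz1, a near copy of Lyz2, rose by 1.18 (SE 0.29) and missed in 4 of the 6 fits without 1 library (chow 1 or 2, atherogenic 1 or 3; 1.05 to 1.15); RNA of the pair may bind the probe sets of both. Cd163, the haemoglobin scavenger receptor, fell from 7.79, 7.49 and 7.32 to 5.92, 6.04 and 5.78 (-1.62, SE 0.34). Both diets stood apart in all 4 members named. The pan-macrophage genes Csf1r, Adgre1 and C1qa changed by -0.05, 0.15 and -0.13. Summed over the 23 genes the linear level was 7116 to 11111 on chow and 10042 to 10294 on the atherogenic diet, so the 2 ranges overlapped, with chow library 1 the highest; the part of cell numbers in these results was not tested. In whole liver, fewer cells of a type and less RNA per cell cannot be told apart.

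Without chow library 1 the macrophage list held 3 rises and 1 fall and its median was 0.18. The members were not the same: Cd9 and Cd5l kept their call there, Lyz2 missed (1.32), and the remaining rise was in another member. Without atherogenic library 1 or 2 the list held 1 rise and 1 fall. Lyz2 also missed without atherogenic libraries 1 or 2 (1.31 and 1.29). Cd5l missed in every fit without 1 library except the one without chow library 1. Of 20 matrix and stellate cell genes 20 changes were positive (51.0% over all genes) and none passed (median 0.17), with Col3a1 at 9.06, 8.24 and 8.14 against 10.04, 9.24 and 8.69. Neutrophil (11), lymphocyte (12), endothelial (12), cholangiocyte (8), pancreas (6), adipocyte (3) and erythroid (3) markers had no member past the threshold, with medians of -0.08, -0.12, 0.18, 0.06, -0.05, 0.05 and -0.04. Itgam of myeloid cells stood at 4.15 or less in each library, near the bottom of the scale.

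Against the females of the other 9 strains, 17 of 18193 genes changed differently in SM/J females: 15 (0.0824%) more negatively and 2 (0.011%) more positively, and 1513 genes had an unadjusted p under 0.05. For 16 of them, chosen by that difference, the SM/J change lay outside the range of the 9 strains, as in 18.2% of all genes, and 8 of the 17 had also passed for diet within SM/J. The count was 7 without atherogenic library 3, 27 without chow library 1, and 8 when either A/J or NZB/BINJ was left out of the comparison. Across all 18193 genes the SM/J change correlated with the mean of the other strains at r = 0.57, within the 0.53 to 0.77 of the other strains taken in the same way; genes are not independent, and the strains share the fit.

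**Figure D3:**
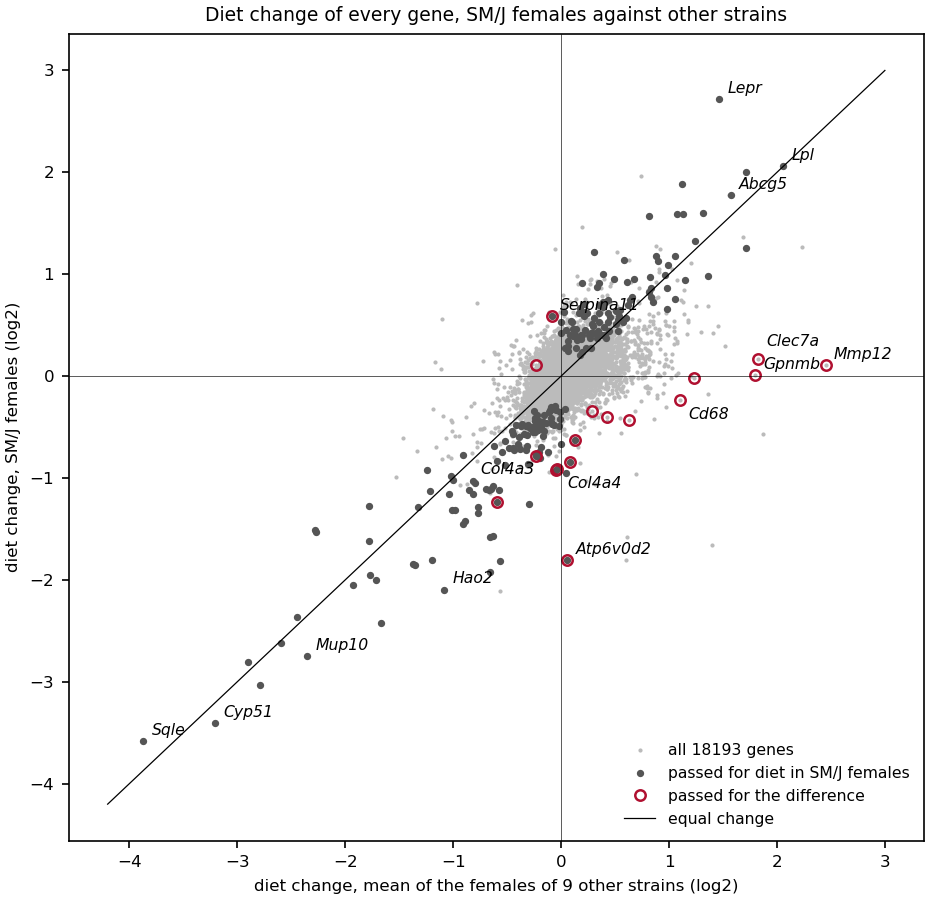
Diet change (log2, atherogenic minus chow) of each gene in SM/J females against the mean change of the females of 9 other strains. Grey points are the 18193 genes, dark points the 225 that passed in SM/J females and red rings the 17 that passed for the difference. Sqle, Lpl and Abcg5 lie near the line of equal change, Mmp12, Gpnmb, Clec7a and Cd68 lie to its right at an SM/J change near 0, and Atp6v0d2, Col4a3 and Col4a4 fall in SM/J females at a mean near 0 in the others.

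The 5 largest differences were in Mmp12, Atp6v0d2, Gpnmb, Clec7a and Cd68, each more negative in SM/J females. Gpnmb and Cd68 were the 2 of 23 macrophage markers that passed for the difference (0.0824% of all genes more negative), and the other 3 are in none of the lists. Mmp12, macrophage elastase, read 4.31, 4.25 and 4.30 on chow and 4.47, 4.21 and 4.50 on the atherogenic diet in SM/J females, a change of 0.11 (SE 0.37), where the changes of the other strains were 0.31 to 6.03. Its SM/J libraries stayed near the bottom of the scale on both diets, and the difference was -2.34 (SE 0.39, adjusted p = 3.93e-04). Gpnmb, a glycoprotein of lipid-laden macrophages, read 5.38, 5.78 and 5.54 against 5.59, 5.55 and 5.60 (difference -1.79, SE 0.32), and its change of 0.01 lay inside the range of the other strains because DBA/2J had -0.26. Cd68, a lysosomal protein of macrophages, read 7.44, 6.83 and 6.83 against 6.83, 6.76 and 6.81, a difference of -1.34 (SE 0.27), and Clec7a, the beta-glucan receptor, differed by -1.65 (SE 0.36). Atp6v0d2, a proton pump subunit of osteoclasts and macrophages, fell from 8.33, 7.38 and 7.83 to 6.22, 5.82 and 6.08, with a difference of -1.86 (SE 0.32, adjusted p = 0.00101). The others ranged from -1.43 to 1.45 for Atp6v0d2. Blnk and Stap1, adaptor proteins of B cells and macrophages, differed by -1.05 and -0.93, Gpr137b-ps, a pseudogene whose parent gene may share its signal, by -1.25, and Actg1, a cytoplasmic actin, by -0.83. These 4 lost their call in most fits without 1 SM/J library: Gpr137b-ps missed in each of the 6 fits without 1 library (-1.30 to -1.19), Blnk in all but the one without atherogenic library 1 (-1.11 to -0.84), Stap1 without chow libraries 1 or 2 or atherogenic libraries 2 or 3 (-0.99 to -0.73) and Actg1 without chow libraries 2 or 3 or atherogenic libraries 2 or 3 (-0.84 to -0.72).

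The 5 largest differences depended to unequal degrees on single strains and animals. Mmp12 and Atp6v0d2 passed in each of the 6 fits without 1 SM/J library, without A/J (-1.90 and -1.71) and without NZB/BINJ (-2.01 and -1.69). Gpnmb passed in those 6 fits but not without A/J (-1.30) or NZB/BINJ (-1.24), the strains in which it changed by 5.67 and 6.17. Cd68 missed without chow library 1 (-1.13) or atherogenic libraries 2 or 3, and Clec7a without chow libraries 1 or 3 or atherogenic libraries 2 or 3 (-1.76 to -1.25). For Cd68 and Clec7a the fits without A/J or NZB/BINJ are not given here. In each of those 2 fits only 8 of the 17 genes kept their call. Marco, a scavenger receptor, read 8.09, 7.15 and 7.30 against 5.59, 6.11 and 6.11 in SM/J females and had the only fall beyond 1 log2 unit among the 10 strains, but neither its change (adjusted p = 0.142) nor the difference (-2.19, SE 0.52, adjusted p = 0.0709) passed. Over the whole macrophage list the SM/J change lay below the mean of the others in 20 of 23 genes (48.2% of all genes), below their whole range in 7 of 23 (7.78% of all genes), and the list median of 0.03 was the lowest of 10 strains, next to 0.04 in DBA/2J and up to 1.34 in NZB/BINJ and 1.56 in A/J. The medians of the chemokine (0.00), matrix (0.17), circadian clock (-0.12) and cholesterol synthesis (-1.95) lists were the lowest of the 10 as well. Of 16 clock genes 6 changed by less than the whole range of the others. These medians and counts carry no test.

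**Figure D4:**
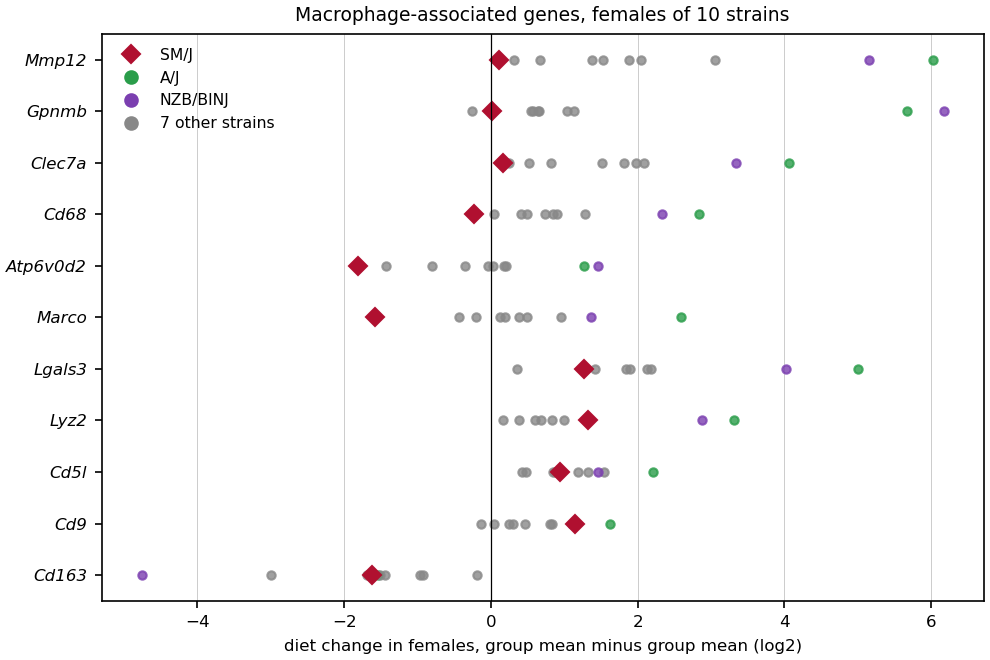
Diet change in females (log2) of 11 macrophage-associated genes, with 1 point per strain and SM/J as a red diamond. SM/J stands lowest for Mmp12, Clec7a, Cd68, Atp6v0d2 and Marco and from the fourth to the ninth lowest for Lyz2, Cd5l, Cd9 and Cd163; A/J and NZB/BINJ hold the highest values of Mmp12, at 6.03 and 5.16.

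The difference with the smallest p was in a pair of collagen genes. Col4a4 and Col4a3, chains of basement membrane collagen IV best known from the kidney filter, are neighbours on chromosome 1 that lie head to head in RefSeq. Col4a4 read 4.96, 5.64 and 5.01 on chow and 4.31, 4.32 and 4.23 on the atherogenic diet, and Col4a3 read 5.56, 5.80 and 4.65 against 4.41, 4.34 and 4.49. Every SM/J chow library was above every atherogenic one in both genes, though their chow means were only just above the median probe set (5.04). The changes were -0.92 (SE 0.09) and -0.92 (SE 0.11), and the differences from the other strains were -0.88 (SE 0.09, adjusted p = 1.16e-10) and -0.87 (SE 0.12, adjusted p = 4.71e-06). In the females of the other strains the group means were 4.08 to 4.33 for Col4a4 and 4.18 to 4.38 for Col4a3 on chow, below the SM/J chow means of 5.20 and 5.33, and 4.03 to 4.29 and 4.02 to 4.36 on the atherogenic diet. Of the 2 other Col4a4 probe sets 1 fell (-0.63, SE 0.09) and differed by -0.63, and a dimmer one did not (-0.04). Both genes passed in every fit that left out 1 SM/J library or 1 other strain, with differences of -1.001 to -0.659 for Col4a4 and -1.21 to -0.64 for Col4a3 over the SM/J libraries.

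The remaining differences were small shifts in single genes. Neu2, a sialidase, fell from 5.25, 5.81 and 5.62 to 4.83, 5.01 and 4.95 (difference -0.76, SE 0.14), and its chow mean of 5.56 lay above the 4.47 to 4.80 of the other strains. Cd209f, a lectin of the DC-SIGN family, fell from 6.64, 6.31 and 6.41 to 5.57, 5.74 and 5.69 (-0.56, SE 0.10), again from a chow mean of 6.45 above the 5.58 to 6.04 of the others. Prnp, the prion protein gene, changed by -0.35 and differed by -0.63 (SE 0.12), and Cwf19l1, of a splicing factor family, by -1.24 with a difference of -0.64 (SE 0.14). Serpina11, a serpin expressed in liver, rose by 0.59 (difference 0.67, SE 0.14) and Itih1, a hyaluronan-binding plasma protein, changed by 0.11 where the 9 others ranged from -0.82 to -0.04 (difference 0.35, SE 0.08). Serpina11 and Itih1 each missed in 5 of the 6 fits without 1 SM/J library, those other than without chow library 1, while Neu2 missed only without chow library 2 (-0.64) and Cd209f only without chow library 1 (-0.46). Prnp missed without chow library 2 (-0.58) or atherogenic library 3 (-0.58), and Cwf19l1 without chow libraries 1 or 2 or atherogenic libraries 1 or 3 (-0.61 to -0.51).

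For the sterol genes no difference from the other strains passed. The median of the cholesterol synthesis list in SM/J females was the lowest of 10, at -1.95 against -1.93 to -0.88, and the median of the LXR targets (0.98) was sixth from the lowest of 10 (0.51 to 1.41). Sqle fell less in SM/J females than in 8 of the 9 other strains (-4.99 to -0.88). Dhcr7 had its largest fall of the 10 strains in SM/J females (difference -0.75, SE 0.30, adjusted p = 0.557). The female-biased list had the third lowest median, at -0.55 against -0.67 to -0.05, and the male-biased list the highest, at 0.13 against -0.72 to 0.07.

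**Figure D5:**
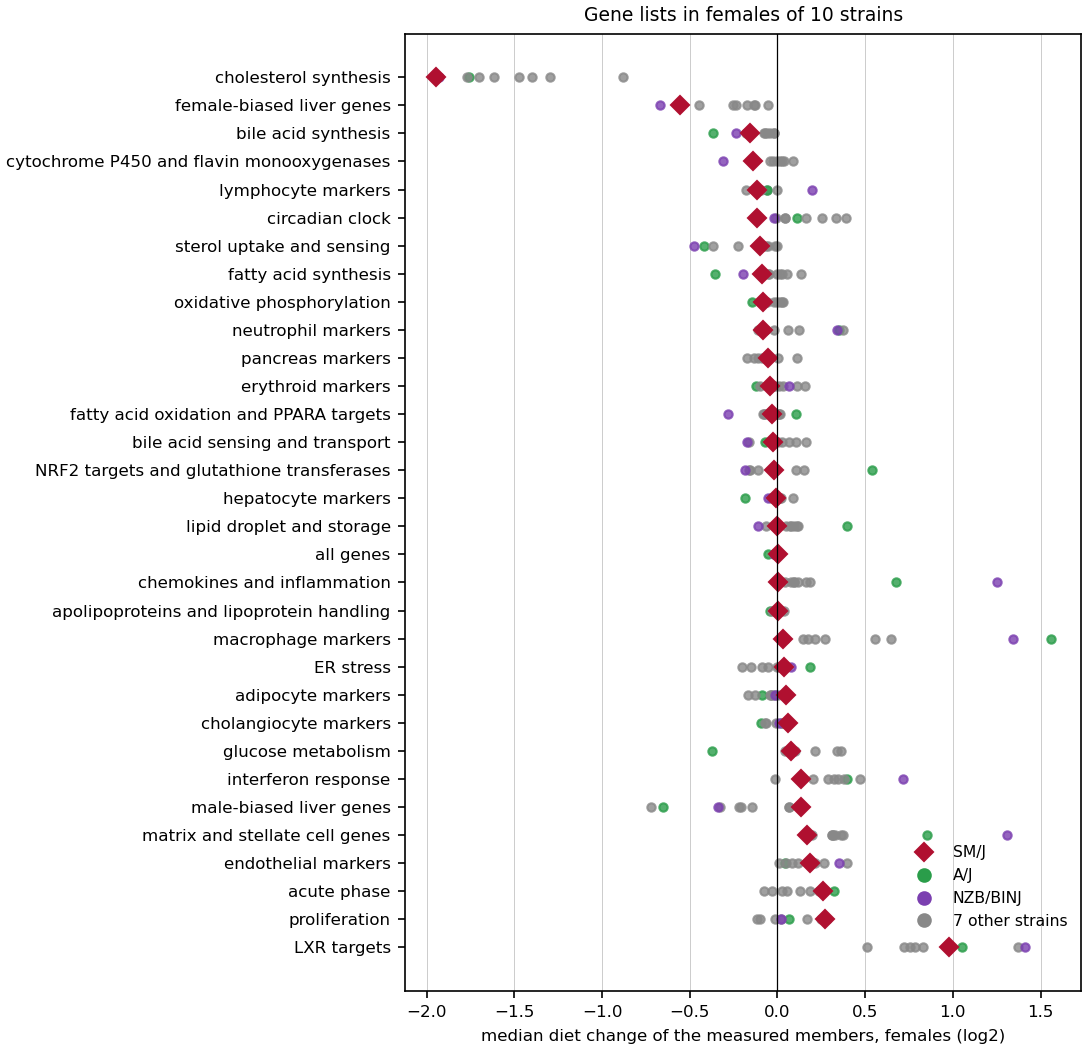
Median diet change (log2) of the measured members of each gene list in females, with 1 point per strain and SM/J as a red diamond. SM/J has the lowest median for cholesterol synthesis (-1.95), chemokines (0.00), macrophage markers (0.03), matrix genes (0.17) and the circadian clock (-0.12), and the highest for male-biased genes (0.13); all genes lie near 0 in each strain.

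The males labelled SM/J, whose diet labels are in doubt, entered neither contrast and served only the fit's shared estimate of spread; without their 6 libraries 218 genes passed for diet and 18 for the difference. As labelled, their diet change correlated with that of SM/J females at r = -0.42 across genes, against 0.24 to 0.47 for the males of the other strains, and Sqle averaged 4.98 in the libraries labelled chow and 6.47 in those labelled atherogenic.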

How the data were processed

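RNA of 144 livers was hybridised to expression arrays. The authors made the values with RMA, per the submitters' processing notes (version and array set not given in the sources used here), and deposited 1 log2 value per probe set and array. RMA can compress changes of dim probe sets, and no read depth lies behind them; 3 arrays per group limit the precision.

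Of 45101 probe sets, 64 controls were left out and 34945 had 1 gene symbol (34741 updated by gene ID through RefSeq's GRCm38.p6). A gene was represented by its probe set with the highest mean over 120 libraries. limma 3.58.1 (lmFit, eBayes) in R 4.3.3 fitted 40 means of strain, sex and diet to 120 libraries (residual df 80), without the older strains PERA/Ei and CAST/EiJ. Contrasts were diet in SM/J females, and that change minus the mean change of the females of 9 other strains. p-values were Benjamini-Hochberg adjusted over 45037 probe sets, with 0.05 as the threshold. The design text gives replicates as separate animals; no scan batches are in the labels. The fit was also run on simulated data with independent noise of equal spread across arrays. Unequal array quality and correlated libraries were not simulated.

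The members, the 32 gene lists (485 of 533 genes measured) and the naming rule were chosen with earlier results of these data known. The rule names the 12 largest rises and falls past the threshold without overlap between diets, the 8 largest differences each way outside the range of the other strains, and list members. Slc22a27, Slc22a29, Lyz1, C9, Aldoc, Sucnr1, Col4a3, Actg1, Neu2, Cwf19l1, Prnp and Cd209f fell outside it and were chosen after their values were seen. Alternatives are in the closing section. Figures used matplotlib 3.10.9.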

Additional observations from a re-analysis of the deposited data

Results flagged for a closer look

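The diet change of 17 genes in SM/J females differed from the mean change of the females of 9 other strains in a test of that difference (limma, adjusted over all probe sets). More negative in SM/J females were Mmp12 (-2.34), Atp6v0d2 (-1.86), Gpnmb (-1.79), Clec7a (-1.65), Cd68 (-1.34), Gpr137b-ps (-1.25), Blnk (-1.05), Stap1 (-0.93), Col4a4 (-0.88), Col4a3 (-0.87), Actg1 (-0.83), Neu2 (-0.76), Cwf19l1 (-0.64), Prnp (-0.63) and Cd209f (-0.56). More positive were Serpina11 (0.67) and Itih1 (0.35). Groups of 3 were not searched for single animals far from the rest.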

How the results depend on the processing

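No named gene that passed changed direction under an alternative. Of 68 named genes that passed for diet, 65 kept their call with a replicate block, 67 with quantile normalization, 67 with each array centred on its median, 58 with the 60 female libraries alone and 23 with the 6 libraries alone; the cause of those losses was not tested. The count of 225 genes became 124 at an adjusted p under 0.01, 62 with at least 2-fold, 31 in the 6 libraries alone and 149 to 205 without single SM/J libraries.

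The 17 genes that differed from the other strains became 8 at an adjusted p under 0.01, 70 with array quality weights (the 6 SM/J female weights ran from 0.42 to 2.42), 27 with 1 probe set per gene (fewer tests), 47 against both sexes of the other strains, 8 without A/J, 8 without NZB/BINJ, 26 without C57BL/6J, 31 without DBA/2J and 7 to 27 without single SM/J libraries. The 17 were all among the 70, 27, 47, 26 and 31. The replicate block left 212 genes for diet (194 of them among the 225) and 10 for the difference (8 of them among the 17). The numbers share no litter or day in the labels: deviations of same-numbered chow and atherogenic libraries correlated at 0.30, 0.40 and 0.05, and chow library 3 correlated best with atherogenic library 1 (0.18). Pairs of unlike number ran from -0.44 to 0.18, and each atherogenic library correlated best with the chow library of its own number. Whether same-numbered animals shared a litter or day was not tested. Dim genes such as Mmp12 and Col4a3 lie near the array background, where small changes are compressed.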

Other observations

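Genes of the cell cycle were mostly higher on the atherogenic diet in SM/J females without passing the test. Of 25 measured proliferation genes 22 changes were positive (51.0% over all genes) and none passed, with a median of 0.27 (0.37 without chow library 1) against -0.11 to 0.28 in the females of the other strains. Mki67, a marker of cycling cells, read 5.51, 5.31 and 4.93 on chow and 6.358, 5.797 and 6.401 on the atherogenic diet (0.94, SE 0.39, adjusted p = 0.44 in limma), and Ccnb2, a mitotic cyclin, changed by 0.95 (SE 0.46). Aldoc, a glycolytic aldolase, fell from 8.07, 7.93 and 7.84 to 5.98, 6.18 and 6.12 (-1.85, SE 0.18), and Sucnr1, the succinate receptor, changed by -1.58 (SE 0.26); both were noticed after their values were seen.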
